A study of Mus musculus with 12 samples.

Results

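The genes described here belong to MHC class II and antigen presentation: Cd74, H2-Aa, H2-Ab1, H2-Eb1, H2-DMa, Ciita and B2m, 7 of the 18193 genes that had a probe set of their own on the array. A probe set counted for a gene when the platform annotation gave that symbol and no other, which left 16 of 45037 probe sets for the 7 genes. Each gene was read by the probe set with the highest mean over all 12 arrays, and the others served as a check. Of the 7 genes, 6 passed the filter on dim probe sets and were among the 11920 genes tested, while Ciita did not.

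Transcripts were measured in isolated glomeruli, the filtering units of the kidney, of female mice aged 8 to 10 weeks, with 1 Affymetrix array per mouse. The groups were 129S2SvPAs with anti-GBM GN, 129S2SvPAs control, C57BL6J with anti-GBM GN and C57BL6J control, with 3 mice in each. Anti-GBM GN is a glomerulonephritis set off by antibodies against the glomerular basement membrane. Challenged mice received nephrotoxic serum on days 0, 1 and 2, and glomeruli were prepared on day 4 by sieving through meshes of 100 and 45 µm. The labels name day 4 for the control mice too, call their treatment control without further detail, and name no transgene or mutant allele. Values are log2 probe set signals, and every difference below is on that log2 scale, followed by its standard error (SE) from limma. A gene was called when its p-value, Benjamini-Hochberg adjusted over all genes tested in the comparison, was under 0.05.

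MHC class II molecules show peptides from engulfed protein to CD4 T cells. They are made mainly by dendritic cells, B cells and macrophages, and interferon gamma can induce them in other cells, among them glomerular and tubular cells, through the co-activator CIITA. MHC class I molecules, which pair with beta 2-microglobulin, show peptides from inside the cell to CD8 T cells and are made by nearly all nucleated cells. Their genes are driven by the related co-activator NLRC5, and both sets are read through an X box bound by the RFX complex, an X2 box bound by CREB-type factors and a Y box bound by NF-Y.

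These elements can be read in the promoters. RefSeq promoter sequences of the build GRCm38.p6 were used for H2-Aa, H2-Eb1, H2-DMa and B2m, 4 of the 7 genes, and not for Cd74, H2-Ab1 and Ciita. The 200 bases before the annotated start are printed 5′ to 3′ on the gene's strand for H2-Aa and H2-Eb1 of class II, and for B2m and H2-D1 of class I, because their values in nephritis against control, given below, lie on opposite sides of 0. Capitals mark the cores searched for on both strands: GCAAC for the X box, TGACG for the X2 box, CCAAT for the Y box (ATTGG when reversed) and, for the interferon response element, a shorter form GAANNGAAA and a longer form with GAAA in place of its first GAA. The windows are chr17:34287824-34288023 on the minus strand for H2-Aa, chr17:34305667-34305866 on the plus strand for H2-Eb1, chr2:122147487-122147686 on the plus strand for B2m and chr17:35262894-35263093 on the plus strand for H2-D1.
H2-Aa: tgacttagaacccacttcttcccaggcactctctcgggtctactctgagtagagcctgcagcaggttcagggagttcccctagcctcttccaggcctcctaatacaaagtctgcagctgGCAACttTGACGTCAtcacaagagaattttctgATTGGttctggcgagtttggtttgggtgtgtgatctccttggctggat
H2-Eb1: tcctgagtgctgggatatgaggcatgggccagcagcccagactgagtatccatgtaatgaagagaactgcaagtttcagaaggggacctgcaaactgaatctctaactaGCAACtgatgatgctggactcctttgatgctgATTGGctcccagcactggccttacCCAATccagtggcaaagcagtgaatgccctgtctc
B2m: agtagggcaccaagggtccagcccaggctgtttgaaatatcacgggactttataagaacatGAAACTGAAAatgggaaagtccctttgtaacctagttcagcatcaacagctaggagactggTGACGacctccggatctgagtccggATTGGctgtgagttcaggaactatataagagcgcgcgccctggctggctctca
H2-D1: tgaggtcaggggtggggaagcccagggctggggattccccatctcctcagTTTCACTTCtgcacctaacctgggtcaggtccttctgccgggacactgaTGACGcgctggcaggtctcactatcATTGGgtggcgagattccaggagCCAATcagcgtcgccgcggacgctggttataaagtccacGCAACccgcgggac

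In H2-Aa the first bases of the X, X2 and reversed Y box cores lay at -81, -74 and -48 from the start site, and the X2 core matched on both strands in overlapping letters. In H2-Eb1 the X box core lay at -91 and the reversed Y box core at -59, with a further CCAAT at -35. B2m had TGACG at -78 and ATTGG at -53, and H2-D1 had them at -101 and -76. The X2 core and the reversed Y core thus began 26 bases apart in H2-Aa and 25 bases apart in B2m, H2-D1 and H2-K1, an arrangement with either spacing that 31 of 32851 promoters held (0.0944%). The X core and the reversed Y core began 33 bases apart in H2-Aa and 32 in H2-Eb1, an arrangement held by 23 promoters (0.07%). These spacings were chosen after the 5 promoters had been read. Each core alone is common in windows of 300 bases, from 250 before to 50 after the start. The X box core was in 35.2% of all promoters, the X2 box core in 20.8%, the Y box core in 37.4%, the shorter interferon response element in 7.52% and the longer one in 3.44%. The shorter form matched in H2-D1, at -150, and in H2-K1, and the longer form in B2m, at -139. Neither matched in the windows of H2-Aa, H2-Eb1 or H2-DMa. Of the genes that supply peptide to class I, Tap1, Psmb8 and Psmb9 were searched too, and neither form matched there. The longer form was added to the search after the sequences had been read. H2-DMa had 2 entries, of which 1 held an X box core and the other a Y box core. A match is a description of the letters and not of binding.

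The arrays differed in ways that touch several results. Array medians lay between 2.99 and 3.06, and values from about 2 to 3 form a floor at which a gene cannot be told from background, so a difference to or from the floor understates the true one. Replicate 1 of 129S2SvPAs anti-GBM GN had Pearson's r of 0.974 and 0.973 across probe sets to the other 2 arrays of its group, against 0.994 between those 2. Podocyte and endothelial markers were above the floor in every group, as glomeruli should show, with the nephrin gene Nphs1 between 3.42 and 8.06 and Pecam1 between 6.18 and 10.16. Proximal tubule markers were present too, with 12 of 12 tested and the transporter Slc34a1 between 11.85 and 12.90. Each array read a whole preparation of sieved glomeruli, so fewer cells of a type and less RNA per cell cannot be told apart.

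Class II transcripts were lowest in nephritic 129S2SvPAs glomeruli and highest in C57BL6J control glomeruli. Cd74 encodes the invariant chain, which fills the class II groove and guides the molecule to endosomes. It measured 5.07, 5.87 and 5.77 in 129S2SvPAs anti-GBM GN, 6.07, 6.95 and 5.73 in 129S2SvPAs control, 7.06, 7.19 and 6.64 in C57BL6J anti-GBM GN, and 7.59, 7.14 and 7.23 in C57BL6J control. The 129S2SvPAs anti-GBM GN arrays lay below all 6 C57BL6J arrays, and among controls the strains did not overlap either. H2-Aa, the alpha chain of the class II molecule I-A, measured 6.92, 7.45 and 7.95 in 129S2SvPAs anti-GBM GN, 8.32, 8.53 and 7.40 in 129S2SvPAs control, 8.96, 9.01 and 8.31 in C57BL6J anti-GBM GN, and 9.58, 8.47 and 8.71 in C57BL6J control. Again nephritic 129S2SvPAs lay below every C57BL6J array, whereas the 129S2SvPAs controls overlapped the C57BL6J controls.

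H2-Ab1, the beta chain of I-A, measured 5.84, 6.94 and 6.96 in 129S2SvPAs anti-GBM GN, 6.76, 7.20 and 6.51 in 129S2SvPAs control, 7.56, 7.49 and 6.96 in C57BL6J anti-GBM GN, and 8.21, 7.25 and 7.82 in C57BL6J control. The control groups of the strains did not overlap, the nephritic groups met at 6.96, and replicate 1 of nephritic 129S2SvPAs was the lowest of the 12 arrays. H2-Eb1, the beta chain of I-E, measured 5.15, 5.63 and 6.23 in 129S2SvPAs anti-GBM GN, 6.13, 6.72 and 5.67 in 129S2SvPAs control, 6.81, 6.79 and 6.17 in C57BL6J anti-GBM GN, and 7.41, 6.59 and 6.77 in C57BL6J control. Here the strains overlapped both in nephritis and in controls. Its partner H2-Ea, whose promoter is deleted in mice of the H2-b haplotype such as C57BL/6, lay between 3.41 and 3.91 on all 12 arrays. In C57BL6J it read from 3.41 to 3.81 despite that deletion, so background can lie above the floor of about 2 to 3.

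H2-DMa encodes a chain of H2-DM, which exchanges the invariant chain fragment for peptide. It measured 2.16, 2.95 and 3.40 in 129S2SvPAs anti-GBM GN, 3.30, 4.13 and 3.65 in 129S2SvPAs control, 3.61, 3.62 and 4.02 in C57BL6J anti-GBM GN, and 4.44, 3.69 and 4.69 in C57BL6J control. Nephritic 129S2SvPAs lay below nephritic C57BL6J without overlap, but 2 of its arrays were under the table's median of 3.03, so the level there is at the floor. Ciita, the gene of the class II co-activator, lay between 2.26 and 2.37 on all 12 arrays, and its other 2 probe sets lay between 2.01 and 2.20. It was at the floor in every group, with 2.33 ± 0.03 in 129S2SvPAs anti-GBM GN, 2.31 ± 0.01 in 129S2SvPAs control, 2.31 ± 0.05 in C57BL6J anti-GBM GN and 2.29 ± 0.04 in C57BL6J control (SD, n = 3 each), and was not tested.

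B2m, the light chain of class I molecules, had another pattern. It measured 12.13, 13.08 and 12.82 in 129S2SvPAs anti-GBM GN, 12.66, 12.46 and 11.94 in 129S2SvPAs control, 13.38, 13.44 and 13.04 in C57BL6J anti-GBM GN, and 12.80, 12.63 and 12.52 in C57BL6J control. Nephritic C57BL6J lay above every control array of either strain, while in 129S2SvPAs the nephritic and control arrays overlapped. The plot of the members by array shows both patterns.

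**Figure D1:**
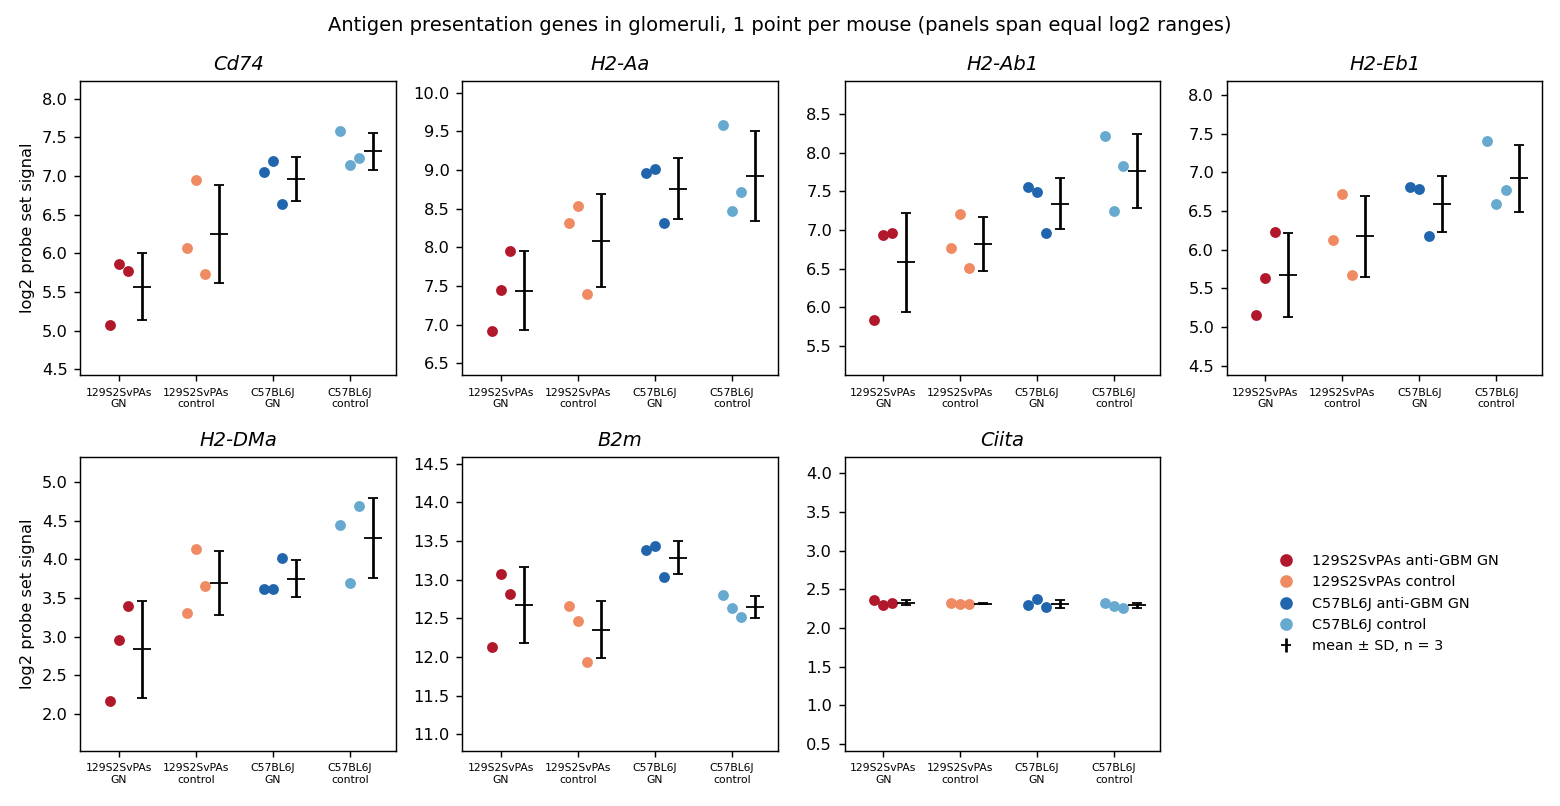
Log2 probe set signal of the 7 genes in each mouse (points) with the mean and SD of each group (bars, n = 3), in panels that span equal log2 ranges. The means of Cd74, H2-Aa, H2-Ab1, H2-Eb1 and H2-DMa climb from nephritic 129S2SvPAs on the left to C57BL6J control on the right, B2m is highest in nephritic C57BL6J, and Ciita lies flat between 2.26 and 2.37.

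The group means of Cd74 were 5.57 ± 0.44 in 129S2SvPAs anti-GBM GN, 6.25 ± 0.63 in 129S2SvPAs control, 6.96 ± 0.29 in C57BL6J anti-GBM GN and 7.32 ± 0.24 in C57BL6J control (SD, n = 3 each). H2-Aa, H2-Ab1, H2-Eb1 and H2-DMa had their means in the same order. Neighbours in that order that were tested against each other, nephritic and control glomeruli within a strain, were not called apart for any of the 5 genes. The arrays of 129S2SvPAs control and C57BL6J anti-GBM GN, next to each other in the middle, overlapped for all 5. For B2m the order was C57BL6J anti-GBM GN at 13.29 ± 0.22, 129S2SvPAs anti-GBM GN at 12.68 ± 0.49, C57BL6J control at 12.65 ± 0.14 and 129S2SvPAs control at 12.35 ± 0.37 (SD, n = 3 each), from high to low.

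The first question was what anti-GBM GN did to these genes in 129S2SvPAs. None of the 6 genes tested was called in limma, and H2-DMa alone had an unadjusted p under 0.05; over all genes 10.6% were called higher and 9.77% lower. The class II values were all below 0. Cd74 was at -0.68 (SE 0.31, adjusted p = 0.155), H2-Aa at -0.64 (SE 0.38, adjusted p = 0.277), H2-Ab1 at -0.24 (SE 0.34, adjusted p = 0.689), H2-Eb1 at -0.50 (SE 0.34, adjusted p = 0.351) and H2-DMa at -0.86 (SE 0.34, adjusted p = 0.106). B2m was at 0.32 (SE 0.25, adjusted p = 0.417). Without nephritic replicate 1, the array that stood apart, B2m was at 0.60 (adjusted p = 0.0725), and with array weights it was called at 0.52 (adjusted p = 0.0442). The median of the 6 was -0.57, beside 0.00 over all genes tested. Precision was limited by 3 arrays a group, since the 95% interval for Cd74 ran from -1.37 to 0.01 and that for H2-Aa from -1.49 to 0.20. Without nephritic replicate 1 the value of H2-Ab1 turned to 0.13.

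In C57BL6J the same comparison again called none of the 6 in limma, with an unadjusted p under 0.05 for B2m alone; 4.78% of all genes were called higher and 2.31% lower. Cd74 was at -0.36 (SE 0.31, adjusted p = 0.586), H2-Ab1 at -0.42 (SE 0.34, adjusted p = 0.545), H2-Eb1 at -0.33 (SE 0.34, adjusted p = 0.66) and H2-DMa at -0.52 (SE 0.34, adjusted p = 0.434). H2-Aa was at -0.16 (SE 0.38, adjusted p = 0.885). Its value was 0.17 without control replicate 1 and 0.06 without anti-GBM GN replicate 3. B2m was at 0.64 (SE 0.25, adjusted p = 0.166), a 1.56-fold difference, higher in 3 of 3 nephritic arrays than in any control. It was called when only the C57BL6J arrays were fitted (adjusted p = 0.0465) and with array weights (adjusted p = 0.0175).

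Averaged over the strains, 3 of the 6 had an unadjusted p under 0.05 and none was called in limma, against 13.0% of all genes called higher and 13.6% called lower. H2-DMa came nearest at -0.69 (SE 0.24, adjusted p = 0.0578), followed by B2m at 0.48 (SE 0.18, adjusted p = 0.0675) and Cd74 at -0.52 (SE 0.22, adjusted p = 0.109). H2-Aa was at -0.40, H2-Ab1 at -0.33 and H2-Eb1 at -0.42. A call appeared without some arrays. It was B2m without 129S2SvPAs anti-GBM GN replicate 1 (adjusted p = 0.00966), H2-DMa without 129S2SvPAs anti-GBM GN replicate 3 (0.0288), 129S2SvPAs control replicate 1 (0.0488) or C57BL6J control replicate 2 (0.0277), and Cd74 without 129S2SvPAs control replicate 3 (0.0499). The difference of the 2 responses, which tests whether strain changed the effect, called none of the 6 in limma, and no unadjusted p was under 0.05; 0.268% of all genes were called higher and 0.294% lower. Its values ran from -0.48 for H2-Aa (95% interval -1.68 to 0.71) to 0.18 for H2-Ab1 (-0.88 to 1.24). Between them lay H2-DMa at -0.33, Cd74 at -0.32, B2m at -0.31 and H2-Eb1 at -0.17.

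**Figure D2:**
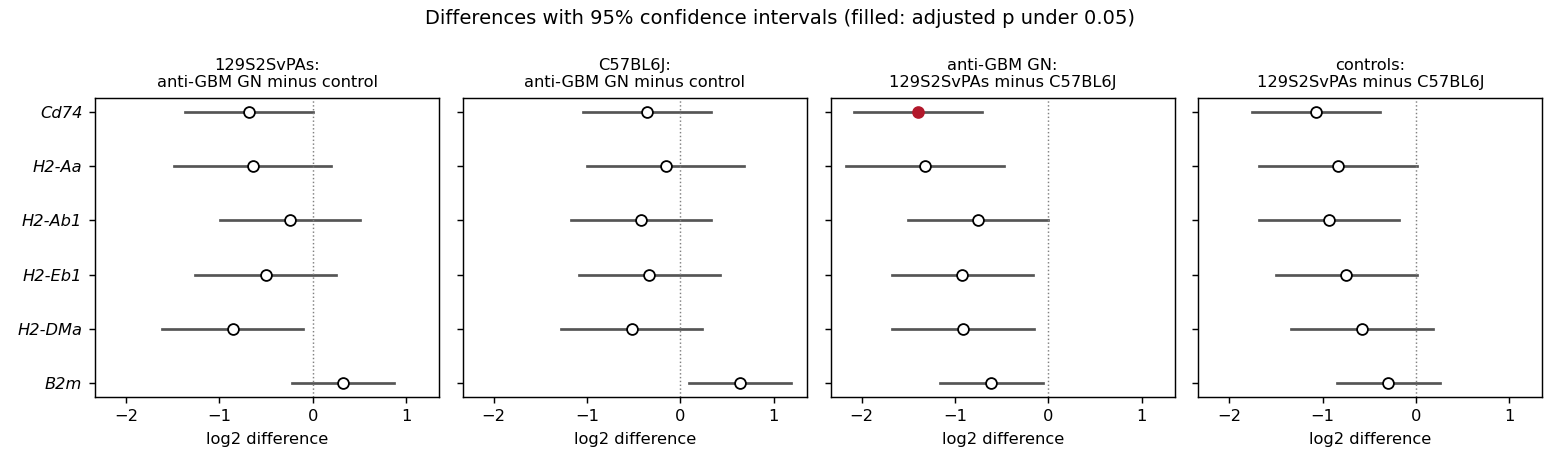
Log2 differences of the 6 genes tested (circles) with 95% confidence intervals (lines) for nephritis minus control within 129S2SvPAs and within C57BL6J, and for 129S2SvPAs minus C57BL6J in nephritis and in controls. The 5 class II genes lie left of 0 in all 4 panels, B2m lies right of 0 in the nephritis panels, and the filled circle marks the only call, Cd74 at -1.39 between nephritic strains.

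Between strains every class II value lay below 0, that is lower in 129S2SvPAs. In nephritic glomeruli Cd74 was called lower, at -1.39 (SE 0.31, adjusted p = 0.0195 in limma), a 2.63-fold difference with 3 of 3 nephritic 129S2SvPAs arrays below every nephritic C57BL6J array. It was the only call among the 6 genes, where 3.49% of all genes were called higher and 4.89% lower, and all 6 values were below 0 with an unadjusted p under 0.05. H2-Aa was at -1.32 (SE 0.38, adjusted p = 0.0605), H2-Eb1 at -0.92 (SE 0.34, adjusted p = 0.142), H2-DMa at -0.91 (SE 0.34, adjusted p = 0.145), H2-Ab1 at -0.76 (SE 0.34, adjusted p = 0.228) and B2m at -0.61 (SE 0.25, adjusted p = 0.181). The median of the 6 was -0.92, beside 0.03 over all genes tested.

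The call of Cd74 rested on few arrays. It was lost without 129S2SvPAs anti-GBM GN replicate 1 (-1.14, adjusted p = 0.051), without C57BL6J anti-GBM GN replicate 1 (-1.34, adjusted p = 0.0703) and without C57BL6J anti-GBM GN replicate 2 (-1.28, adjusted p = 0.0779), and with no filter on dim probe sets (adjusted p = 0.0517). In the other direction H2-Aa joined it without 129S2SvPAs control replicate 3 (adjusted p = 0.0374) or C57BL6J control replicate 1 (adjusted p = 0.0456).

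In control glomeruli the values were again all below 0, and none of the 6 was called in limma, while 2 had an unadjusted p under 0.05; 3.32% of all genes were called higher and 5.11% lower. Cd74 was at -1.07 (SE 0.31, adjusted p = 0.0605) and H2-Ab1 at -0.94 (SE 0.34, adjusted p = 0.127), both with every 129S2SvPAs control below every C57BL6J control. H2-Aa was at -0.84 (adjusted p = 0.229), H2-Eb1 at -0.75 (adjusted p = 0.228), H2-DMa at -0.58 (adjusted p = 0.368) and B2m at -0.30 (adjusted p = 0.549). Cd74 was called without 129S2SvPAs control replicate 2 (-1.42, adjusted p = 0.0104). Without 129S2SvPAs anti-GBM GN replicate 1, an array outside this comparison that enters the shared estimate of the spread, Cd74 (adjusted p = 0.0392) and H2-Ab1 (adjusted p = 0.0495) were called.

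The other probe sets above the floor had lower means in 129S2SvPAs than in C57BL6J, in nephritis and in controls. The second probe set of H2-Aa averaged 7.34 ± 0.67 in 129S2SvPAs anti-GBM GN, 8.10 ± 0.60 in 129S2SvPAs control, 8.69 ± 0.50 in C57BL6J anti-GBM GN and 9.02 ± 0.51 in C57BL6J control (SD, n = 3 each). The third averaged 4.93 ± 0.99 in 129S2SvPAs anti-GBM GN, 5.95 ± 0.86 in 129S2SvPAs control, 6.54 ± 0.44 in C57BL6J anti-GBM GN and 6.76 ± 0.62 in C57BL6J control (SD, n = 3 each). The second probe set of H2-Ab1 averaged 5.26 ± 1.07 in 129S2SvPAs anti-GBM GN, 5.48 ± 0.94 in 129S2SvPAs control, 6.52 ± 0.35 in C57BL6J anti-GBM GN and 6.69 ± 0.52 in C57BL6J control, and the third averaged 3.61 ± 1.22, 4.07 ± 0.45, 4.59 ± 0.55 and 5.01 ± 0.67 in these 4 groups (SD, n = 3 each). The second probe set of B2m averaged 12.27 ± 0.54 in 129S2SvPAs anti-GBM GN, 11.88 ± 0.59 in 129S2SvPAs control, 12.98 ± 0.30 in C57BL6J anti-GBM GN and 12.28 ± 0.10 in C57BL6J control. The fourth probe set of H2-Aa and the second of H2-DMa lay at the floor. H2-Aa and H2-Ab1 were read by probe sets of kinds that can match related sequences, so their levels may include other class II transcripts.

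Leukocyte markers moved with the strain difference. The summed log2 signal of 6 pan-leukocyte markers ran from 26.46 to 30.19 in 129S2SvPAs anti-GBM GN, from 28.42 to 37.15 in 129S2SvPAs control, from 38.35 to 44.38 in C57BL6J anti-GBM GN and from 36.81 to 42.92 in C57BL6J control. The nephritic groups of the strains did not overlap, and the control groups did at 129S2SvPAs control replicate 2, the array in which Cd74, H2-Aa, H2-Ab1 and H2-Eb1 were highest in 129S2SvPAs controls. Between nephritic strains all 6 markers were called lower in 129S2SvPAs, beside 4.89% of all genes. Ptprc, the leukocyte antigen CD45, measured 4.83, 5.14 and 5.29 in 129S2SvPAs anti-GBM GN, against 7.54, 7.08 and 6.56 in C57BL6J anti-GBM GN, a difference of -1.97 (SE 0.35, adjusted p = 0.00537 in limma). Tyrobp, a signalling adaptor of myeloid cells, was at -2.57, Fcer1g at -2.43, Coro1a at -2.31, Cd53 at -2.05 and Laptm5 at -1.72. Of the 6 calls 1 was left without C57BL6J anti-GBM GN replicate 1, 2 without C57BL6J anti-GBM GN replicate 2, 4 without 129S2SvPAs anti-GBM GN replicate 3 and 5 without 129S2SvPAs anti-GBM GN replicate 1. In controls Cd53 was called lower (-1.71, adjusted p = 0.0348), a call lost without any one of 5 arrays, 129S2SvPAs anti-GBM GN replicate 2, 129S2SvPAs control replicates 1 and 3 and C57BL6J control replicates 1 and 2 (adjusted p from 0.0505 to 0.117). In nephritis against control none of the 6 was called in either strain in limma, with an unadjusted p under 0.05 for 2 in 129S2SvPAs and 1 in C57BL6J. In 129S2SvPAs all 6 lay below 0, with a median of -0.79, on the same side as the class II genes. In C57BL6J all 6 lay above 0, with a median of 0.33, while Cd74, H2-Aa, H2-Ab1, H2-Eb1 and H2-DMa lay below 0. The part of leukocytes in the class II result was not tested.

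Markers of single leukocyte types were mostly at the floor. Of 9 dendritic cell markers Zbtb46 alone was tested, Flt3, Xcr1, Cd209a, Itgax, Batf3, Ccr7 and Clec10a were at the floor, and the remaining one was not analysed here. Zbtb46, which endothelium also expresses, ran from 5.81 to 6.10 in 129S2SvPAs anti-GBM GN, from 5.01 to 5.50 in 129S2SvPAs control, from 5.95 to 7.02 in C57BL6J anti-GBM GN and from 5.69 to 5.97 in C57BL6J control. It rose in the average over strains, by 0.75 (SE 0.17, adjusted p = 0.00918 in limma). Of the B cell markers Cd79a, Pax5 and Cd22 were at the floor. The summed signal of Cd79b and Ms4a1 was 6.12 to 6.48 in 129S2SvPAs anti-GBM GN, 6.14 to 6.60 in 129S2SvPAs control, 6.89 to 7.23 in C57BL6J anti-GBM GN and 7.50 to 8.93 in C57BL6J control. Cd79b is a chain of the B cell receptor complex. It was called lower in 129S2SvPAs controls than in C57BL6J controls, at -1.53 (SE 0.24, adjusted p = 0.00287 in limma). Its signal ran from 2.49 to 2.87 on the 129S2SvPAs arrays, at the floor, and from 3.34 to 4.79 on the C57BL6J arrays. Cd79b thus passed the filter on dim probe sets through the C57BL6J arrays alone. In nephritis Ms4a1, the gene of CD20, fell in C57BL6J by 0.46 (SE 0.11, adjusted p = 0.0278 in limma), near the floor and on the same side of 0 as the class II genes, with Cd79b at -0.73. That call was lost without any one of 5 arrays, C57BL6J anti-GBM GN replicates 1, 2 and 3 and C57BL6J control replicates 1 and 3 (adjusted p from 0.0587 to 0.114). The part of B cells in the class II values was not tested. Of 7 T cell markers 2 were tested and neither was called, with sums of 6.12 to 6.29, 6.06 to 6.73, 5.68 to 6.32 and 5.99 to 6.23 in 129S2SvPAs anti-GBM GN, 129S2SvPAs control, C57BL6J anti-GBM GN and C57BL6J control, and with Cd3e, Cd3d, Cd3g and Cd5 at the floor.

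Macrophage and monocyte markers gave 9 of 15 genes tested, with C1qa, C1qc, Itgam, Fcgr1 and Ccr2 at the floor. Their summed signal ran from 39.56 to 40.94 in 129S2SvPAs anti-GBM GN, from 36.97 to 45.78 in 129S2SvPAs control, from 43.75 to 50.75 in C57BL6J anti-GBM GN and from 42.01 to 47.53 in C57BL6J control. In nephritis against control none of the 9 was called in limma, with an unadjusted p under 0.05 for 1 in 129S2SvPAs and 2 in C57BL6J, and 8 of 9 lay above 0 in C57BL6J and 4 of 9 in 129S2SvPAs. Csf1r, the receptor for macrophage colony-stimulating factor, was lower in nephritic 129S2SvPAs than in nephritic C57BL6J, at -1.49 (SE 0.34, adjusted p = 0.0207 in limma). That call was lost without C57BL6J anti-GBM GN replicate 1 or 129S2SvPAs anti-GBM GN replicates 2 or 3, and with no filter (adjusted p = 0.0548). Markers of resident cells also differed between strains. All 4 podocyte markers tested, Nphs1, Podxl, Wt1 and Synpo, were called lower in 129S2SvPAs controls, beside 5.11% of all genes. Their sum was 29.36 to 32.49 there, against 35.90 to 38.38 in C57BL6J controls. The call of Nphs1 was lost without any one of 8 arrays (adjusted p from 0.0605 to 0.184), and those of Wt1 (0.0607) and Synpo (0.0674) without C57BL6J control replicate 2. The sum of 6 endothelial markers was 48.77 to 58.45 in 129S2SvPAs controls and 58.11 to 62.92 in C57BL6J controls. Their part in the strain differences was not tested.

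**Figure D3:**
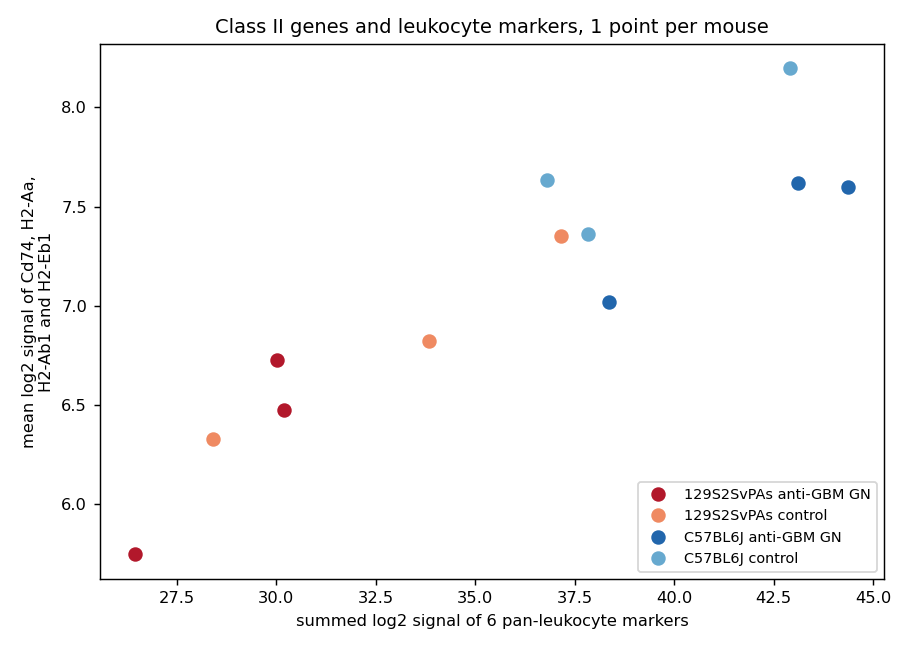
Mean log2 signal of Cd74, H2-Aa, H2-Ab1 and H2-Eb1 (vertical axis) against the summed log2 signal of 6 pan-leukocyte markers (horizontal axis), 1 point per mouse. Nephritic 129S2SvPAs replicate 1 is lowest on both axes, at 5.75 and 26.46, and the C57BL6J arrays lie to the upper right, with class II means from 7.02 to 8.20.

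Likeness to the class II genes was measured as Pearson's r with the mean log2 of Cd74, H2-Aa, H2-Ab1 and H2-Eb1 over the 12 arrays, which share groups and preparations, so r is a description only. Of 11920 genes, after the 4 themselves, the closest were Ptprc (r = 0.942) and Coro1a (r = 0.937), both of the leukocyte list. The 5 closest genes in no list were Klhl7 (0.927), Rflna (0.922), the chemerin receptor Ccrl2 (0.911), the secreted phospholipase gene Pla2g5 (0.909) and Gsto1 (0.908). After each group's mean was subtracted, the gene closest was Ctss (0.981), the cysteine protease cathepsin S that trims the invariant chain in antigen-presenting cells. The 5 closest in no list were then Poli (0.943), Nsd3 (0.936), Slc25a17 (0.935), Rtp4 (0.93) and Ankra2 (0.924). H2-DMa had r = 0.814 over all arrays.

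Some class I genes rose in nephritis, in shares near or above those over all genes. In the list of class II chains and paralogs, of 5 genes tested none was called in nephritis against control in either strain or on average in limma, with an unadjusted p under 0.05 for none in either strain and for 1 on average. Their medians were -0.50 in 129S2SvPAs and -0.33 in C57BL6J. Of 10 class I chains 1 rose in 129S2SvPAs, where 10.6% of all genes did, and 1 rose and 1 fell in C57BL6J, where 4.78% and 2.31% of all genes did. Of 13 genes of class I peptide supply and loading 3 rose in 129S2SvPAs, with a median of 0.09, and 2 rose in C57BL6J, with a median of 0.18. On average over the strains 3 class I chains rose and 1 fell, and 6 supply genes rose and none fell, beside 13.0% and 13.6% of all genes. Nlrc5 is counted among the supply genes that rose in C57BL6J and on average, though it passed the filter through nephritic C57BL6J alone. With 5 to 13 genes in a list, these counts are small. Whether the class I and class II lists differed from each other was not tested.

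Among the class I chains, H2-K1 encodes a classical heavy chain. It measured 10.42, 10.64 and 10.59 in 129S2SvPAs anti-GBM GN, 10.35, 10.43 and 9.68 in 129S2SvPAs control, 11.64, 11.85 and 11.73 in C57BL6J anti-GBM GN, and 10.79, 10.70 and 10.87 in C57BL6J control. Nephritic C57BL6J stood above all other arrays, and H2-K1 rose there by 0.95 (SE 0.18, adjusted p = 0.00864 in limma). In 129S2SvPAs its value was 0.40 (SE 0.18, adjusted p = 0.146). H2-D1, the other classical heavy chain of these mice and the gene whose promoter is shown above, measured 11.01, 11.92 and 11.61 in 129S2SvPAs anti-GBM GN, 10.65, 10.86 and 10.08 in 129S2SvPAs control, 12.19, 12.43 and 12.01 in C57BL6J anti-GBM GN, and 11.23, 11.37 and 11.42 in C57BL6J control. The nephritic arrays lay above the controls within each strain. H2-D1 rose in 129S2SvPAs by 0.98 (SE 0.25, adjusted p = 0.0163 in limma) and was at 0.87 in C57BL6J (SE 0.25, adjusted p = 0.0593). The call in 129S2SvPAs was lost without 129S2SvPAs anti-GBM GN replicate 2 (adjusted p = 0.0652), anti-GBM GN replicate 3 (0.0519) or control replicate 3 (0.0546), and when only the 129S2SvPAs arrays were fitted (0.094). Both genes were read by probe sets of a kind that can match related class I sequences, so their reads may be shared. The second probe set of H2-K1 was at 0.78 in C57BL6J (adjusted p = 0.119), and the mean of all probe sets of H2-D1 was at 0.50 in 129S2SvPAs (adjusted p = 0.0147). Cd1d1, which presents lipids, fell in C57BL6J by 0.72 (SE 0.14, adjusted p = 0.0108 in limma) and was at 0.04 in 129S2SvPAs.

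Of the genes that supply peptide, Tap1, a subunit of the transporter into the endoplasmic reticulum, measured 5.41, 5.41 and 5.46 in 129S2SvPAs anti-GBM GN, 4.73, 5.53 and 4.91 in 129S2SvPAs control, 6.64, 6.99 and 7.28 in C57BL6J anti-GBM GN, and 6.07, 5.27 and 5.44 in C57BL6J control. Nephritic C57BL6J was again above all other arrays, and the rise there was 1.38 (SE 0.25, adjusted p = 0.00784 in limma). As the mean of all Tap1 probe sets it was 0.345 and still called (adjusted p = 0.0349). Nlrc5, the class I co-activator, measured 2.39, 2.35 and 2.40 in 129S2SvPAs anti-GBM GN, 2.54, 2.32 and 2.39 in 129S2SvPAs control, 4.09, 3.32 and 3.84 in C57BL6J anti-GBM GN, and 2.74, 2.72 and 2.52 in C57BL6J control. It was above the floor in nephritic C57BL6J only, among these 4 groups, where it rose by 1.09 (SE 0.17, adjusted p = 0.00326 in limma). Only the 3 nephritic C57BL6J arrays exceeded the table's median of 3.03, so Nlrc5 passed the filter through that group alone. The same holds for its calls between nephritic strains and on average over the strains. With no filter on dim probe sets its call in C57BL6J was kept. In 129S2SvPAs the genes that rose were Tapbp, the tapasin gene, by 0.85 (SE 0.18, adjusted p = 0.00634), the immunoproteasome subunit Psmb10 by 0.57 (SE 0.13, adjusted p = 0.0122) and its partner Psmb8 by 1.01 (SE 0.30, adjusted p = 0.0378), all in limma. Psmb8 lost its call without any one of 6 arrays (adjusted p from 0.0524 to 0.128), namely 129S2SvPAs anti-GBM GN replicates 2 and 3, 129S2SvPAs control replicates 1 and 3, C57BL6J anti-GBM GN replicate 2 and C57BL6J control replicate 3. Its dim second probe set was at 0.02 in 129S2SvPAs, and the second probe set of Tapbp at 0.48 (adjusted p = 0.264). The difference of responses called none of these 23 class I genes in limma; 2 chains and 3 supply genes had an unadjusted p under 0.05, so no response was shown to differ between strains.

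Between strains the class I genes that were called were all lower in 129S2SvPAs. In nephritis 3 of 10 chains and 5 of 13 supply genes were called lower and none higher, beside 4.89% of all genes called lower and 3.49% called higher. The supply genes counted here include Nlrc5, which passed the filter through nephritic C57BL6J alone. Psmb9, an immunoproteasome subunit, was at -1.68 (SE 0.22), Tap1 at -1.54 (SE 0.25), Psmb8 at -1.43 (SE 0.30), Nlrc5 at -1.37 (SE 0.17) and Psmb10 at -0.56 (SE 0.13). The chains were H2-M3, which presents formylated peptides, at -1.66 (SE 0.17), H2-K1 at -1.19 (SE 0.18) and Hfe, a regulator of iron uptake with a class I fold, at -1.07 (SE 0.19). H2-K1 was at -0.67 in its second probe set and not called (adjusted p = 0.159), and the mean of all Tap1 probe sets was at -0.36 (adjusted p = 0.0254). The calls of Psmb8 and Psmb10 were lost without C57BL6J anti-GBM GN replicate 1 (adjusted p = 0.0652 and 0.0986) or replicate 2 (0.0534 and 0.0787), and that of Psmb10 also without 129S2SvPAs anti-GBM GN replicate 1 (0.0612) or replicate 2 (0.0819). In controls H2-M3 (-1.46), Hfe (-1.21), Psmb8 (-1.75), Psmb9 (-1.52) and Psmb10 (-1.02) were called lower, beside 5.11% of all genes. These 5 calls held without each array in turn. The dim second probe set of Psmb8 was at 0.06 in controls and at -0.01 in nephritis. H2-M3 measured 3.93, 4.13 and 4.15 in 129S2SvPAs anti-GBM GN, 4.06, 4.06 and 4.10 in 129S2SvPAs control, 5.88, 6.02 and 5.28 in C57BL6J anti-GBM GN, and 5.58, 5.53 and 5.50 in C57BL6J control, so that it followed strain and not treatment.

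Of 9 class II loading and processing genes tested, 2 rose and 1 fell in 129S2SvPAs, where 10.6% of all genes rose and 9.77% fell. In C57BL6J 1 fell, where 2.31% of all genes did. The endosomal proteases Lgmn, legumain, and Ctsl, cathepsin L, rose in 129S2SvPAs by 0.90 (SE 0.17, adjusted p = 0.00415 in limma) and 0.56 (SE 0.12, adjusted p = 0.00896 in limma). Both are abundant in kidney tubule cells as well. Lgmn measured 12.25, 11.85 and 12.13 in 129S2SvPAs anti-GBM GN, 11.21, 11.00 and 11.31 in 129S2SvPAs control, 10.84, 10.89 and 11.38 in C57BL6J anti-GBM GN, and 11.07, 10.97 and 11.31 in C57BL6J control. It was high in nephritic 129S2SvPAs alone among the 4 groups, and was called higher there than in nephritic C57BL6J, at 1.04 (SE 0.17, adjusted p = 0.00384 in limma). The sum of 12 proximal tubule markers was 126.34 to 129.75 in 129S2SvPAs anti-GBM GN and 139.01 to 140.21 in 129S2SvPAs control. Of the 12 markers 7 were called lower in that comparison, beside 9.77% of all genes. The part of tubule cells in the values of Lgmn and Ctsl was not tested. The dim second probe set of Ctsl was at 0.01 in 129S2SvPAs. Among controls Ctsl was the only call of the list, lower in 129S2SvPAs at -0.55 (SE 0.12, adjusted p = 0.0209 in limma). That call was lost without 129S2SvPAs control replicate 3, C57BL6J control replicate 1 or C57BL6J control replicate 3 (adjusted p from 0.0544 to 0.07) and when only the control arrays were fitted (0.0671). In the same comparison the second probe set of Ctsl was at -3.20 (adjusted p = 4.21e-08 in limma). The mean of all Ctsl probe sets was at -1.88 (adjusted p = 6.59e-07 in limma). Ctss measured 4.93, 6.11 and 6.37 in 129S2SvPAs anti-GBM GN, 6.50, 7.21 and 5.49 in 129S2SvPAs control, 8.74, 8.77 and 7.70 in C57BL6J anti-GBM GN, and 8.49, 7.35 and 7.30 in C57BL6J control. Between nephritic strains it was called lower in 129S2SvPAs, at -2.60 (SE 0.52, adjusted p = 0.0117 in limma), a call lost without C57BL6J anti-GBM GN replicate 1 (0.0505) or replicate 2 (0.053).

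The ubiquitin ligases that remove class II from the cell surface were also in that list. Marchf1 fell in C57BL6J by 0.65 (SE 0.15, adjusted p = 0.0236 in limma), close to the floor and without a call when any one of 5 arrays, C57BL6J anti-GBM GN replicates 1, 2 and 3 and control replicates 2 and 3, was left out (adjusted p from 0.0569 to 0.0919). Marchf8 fell in 129S2SvPAs by 0.39 (SE 0.12, adjusted p = 0.0467 in limma). That call was lost without any one of 10 arrays, all but 129S2SvPAs anti-GBM GN replicate 2 and 129S2SvPAs control replicate 3 (adjusted p from 0.0533 to 0.158). H2-Oa and H2-Ob were at the floor, and H2-DMb1 was read only by a probe set shared with another gene.

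Of 7 transcription factors of the class II promoter tested, none was called in C57BL6J in limma, with an unadjusted p under 0.05 for 1, and 2 rose and 1 fell in 129S2SvPAs, beside 10.6% and 9.77% of all genes. Rfxank, a subunit of the RFX complex, measured 5.62, 5.55 and 5.99 in 129S2SvPAs anti-GBM GN, 6.91, 7.15 and 7.16 in 129S2SvPAs control, 6.34, 5.76 and 5.86 in C57BL6J anti-GBM GN, and 6.69, 6.34 and 6.22 in C57BL6J control. It fell in 129S2SvPAs by 1.35 (SE 0.19, adjusted p = 0.00063 in limma) without overlap, and was at -0.43 in C57BL6J (SE 0.19, adjusted p = 0.218). Nfyb, a subunit of the Y box factor NF-Y, rose in 129S2SvPAs by 0.62 (SE 0.13, adjusted p = 0.00728 in limma). Rfxap, another RFX subunit, rose there by 0.61 (SE 0.19, adjusted p = 0.0441 in limma), but lost its call without any one of 10 arrays, all but 129S2SvPAs anti-GBM GN replicate 1 and 129S2SvPAs control replicate 2 (adjusted p from 0.0548 to 0.154). The second probe sets of Rfxank, Nfyb and Rfxap were at -0.30, 0.12 and -0.35 and were not called, and the mean of all Rfxank probe sets was at -0.59.

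Of 10 genes tested in the interferon gamma signalling list, 5 rose and 1 fell in 129S2SvPAs, beside 10.6% of all genes that rose and 9.77% that fell. Socs1, Cxcl9 and Ido1 of the same list were at the floor and were not tested. In C57BL6J limma called none, while the unadjusted p was under 0.05 for 3. The receptor chain gene Ifngr2 rose in 129S2SvPAs by 2.20 (SE 0.45, adjusted p = 0.00574 in limma), the transcription factor Irf1 by 1.10 (SE 0.24, adjusted p = 0.00892 in limma) and the guanylate-binding protein genes Gbp2, Gbp3 and Gbp7 by 1.39, 1.25 and 0.79. In C57BL6J Ifngr2 was at 1.41 (SE 0.45, adjusted p = 0.0935) and Irf1 at 0.60 (SE 0.24, adjusted p = 0.186). Among controls Irf1 (-1.27), Gbp2 (-2.08), Gbp3 (-1.44) and Gbp7 (-1.11) were called lower in 129S2SvPAs, 4 of 10 beside 5.11% of all genes. Between nephritic strains none of the list was called in limma, where 6 had an unadjusted p under 0.05. Irf1 measured 6.40, 6.55 and 6.52 in 129S2SvPAs anti-GBM GN, 5.53, 5.91 and 4.72 in 129S2SvPAs control, 7.29, 7.33 and 7.15 in C57BL6J anti-GBM GN, and 6.89, 6.56 and 6.53 in C57BL6J control, so the nephritic 129S2SvPAs arrays stood at the lower edge of the C57BL6J controls. Jak2, a kinase of the receptor, fell in 129S2SvPAs by 0.49. The calls in 129S2SvPAs were lost for Gbp2 without 129S2SvPAs anti-GBM GN replicate 2 (0.0534) or 3 (0.0535), for Gbp7 without replicate 3 (0.0619), and for Jak2 without anti-GBM GN replicate 2 (0.075) or control replicates 1 (0.0511) or 2 (0.0708). The second probe set of Ifngr2 was at 0.15 (adjusted p = 0.361). The difference of responses called none of the 10 in limma, and no unadjusted p was under 0.05.

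Co-stimulatory genes gave 3 tested of 9, with Cd80 and Cd86, the CD28 ligands of antigen-presenting cells, at the floor. Cd40, which receives the CD40 ligand signal of T cells and is also made by endothelium, measured 6.26, 5.89 and 5.60 in 129S2SvPAs anti-GBM GN, 4.50, 5.27 and 4.67 in 129S2SvPAs control, 6.21, 6.76 and 6.03 in C57BL6J anti-GBM GN, and 4.84, 5.55 and 4.42 in C57BL6J control. The nephritic arrays lay above the controls within each strain, and Cd40 rose by 1.10 in 129S2SvPAs (SE 0.31, adjusted p = 0.0307 in limma) and by 1.40 in C57BL6J (SE 0.31, adjusted p = 0.0231 in limma). Each call was lost without any one of 4 arrays of its own strain, anti-GBM GN replicates 1 and 2 and control replicates 1 and 3 (in 129S2SvPAs the adjusted p lay between 0.0744 and 0.106, in C57BL6J between 0.0576 and 0.11). Averaged over strains Cd40 rose by 1.25 (SE 0.22, adjusted p = 0.00212 in limma), and this call held without each array in turn. Icosl, the ligand of ICOS, rose in C57BL6J by 0.50 (SE 0.12, adjusted p = 0.0249 in limma) and was at 0.20 in 129S2SvPAs. Its call was lost without any one of 4 arrays, C57BL6J anti-GBM GN replicate 2 and C57BL6J control replicates 1, 2 and 3 (adjusted p from 0.0644 to 0.111).

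Averaged over the strains, 23 genes of these lists were called, where 13.0% of all genes were called higher and 13.6% lower. None of 5 class II chains was called. Of 9 loading genes 2 rose and 1 fell, and of 7 transcription factors 1 rose and 1 fell. Of 10 class I chains 3 rose and 1 fell, and of 13 supply genes 6 rose and none fell. Of 10 interferon gamma genes 5 rose and 1 fell, and of 3 co-stimulatory genes 2 rose and none fell. Cd40 is given above, and Icosl rose by 0.35. Psmb8 rose by 0.845, Psmb10 by 0.34 and Gbp7 by 0.51, and Jak2 fell by 0.33. The other calls were the following. The class I chains H2-K1, H2-D1 and H2-T24 rose by 0.68, 0.93 and 0.99, and Cd1d1 fell by 0.34. Of peptide supply Tapbp rose by 0.65, Tap1 by 0.87, Nlrc5 by 0.53 and Tap2, the partner of Tap1 in the transporter, by 0.54. Rfxank fell by 0.89 and Nfyb rose by 0.34. Of the loading genes Lgmn rose by 0.41 and Ctsl by 0.32, and Marchf1 fell by 0.42. The interferon gamma genes Ifngr2, Gbp2, Gbp3 and Irf1 rose by 1.80, 0.95, 0.94 and 0.85. Of the 23 calls 6 were lost without single arrays. They were Cd1d1 (any one of 6 arrays), Lgmn (any one of 5) and Ctsl (129S2SvPAs anti-GBM GN replicate 2 or C57BL6J control replicate 2). The others were Jak2 (any one of 3), Psmb10 (any one of 3) and Gbp7 (C57BL6J anti-GBM GN replicate 2 or C57BL6J control replicate 1). In second probe sets the calls of Ifngr2, Jak2, Nfyb, Psmb8, Rfxank and Tapbp were lost. In its second probe set Ctsl was called in the other direction, at -0.35.

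Of the 17 calls of the antigen presentation lists in 129S2SvPAs nephritis, 5 were kept when only the 129S2SvPAs arrays were fitted, those of Cd40, Gbp3, Lgmn, Nfyb and Rfxank. The other 12 then had adjusted p from 0.0515 to 0.161. With no filter on dim probe sets Cd40 lost its call in both strains (adjusted p = 0.0704 in 129S2SvPAs and 0.0587 in C57BL6J). Some endothelial markers were called in 129S2SvPAs nephritis too. Pecam1 rose by 2.67 and Cdh5 by 1.71 in 129S2SvPAs, and Ehd3, a marker of glomerular endothelium, fell by 2.56. Their part in the values of Cd40 and Zbtb46 was not tested.

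**Figure D4:**
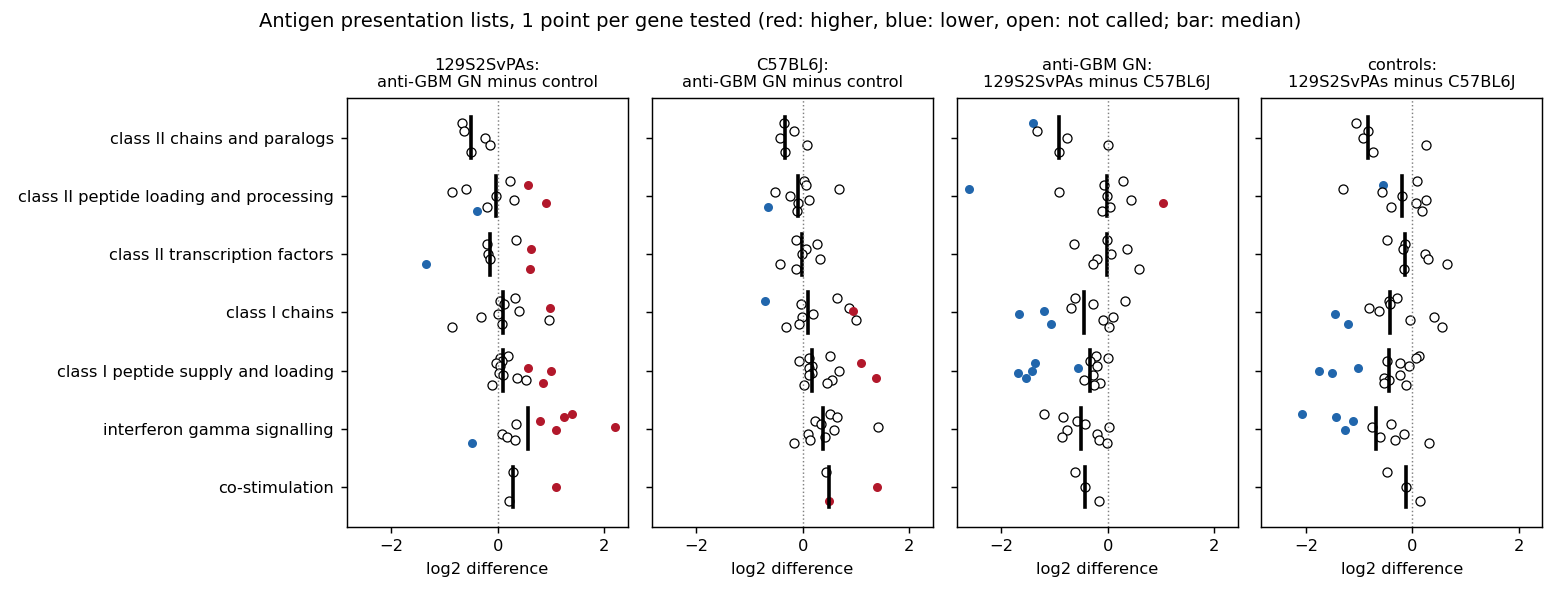
Log2 differences of every tested gene of 7 antigen presentation lists (points; filled red for called higher, filled blue for called lower, open for not called) with the median of each list (black bar), in 4 comparisons. Class II chains are open in the nephritis panels and left of 0 except for H2-Ea in C57BL6J (0.09). Filled red points stand among the class I lists in both nephritis panels and among the interferon gamma list in the 129S2SvPAs panel, and the filled points of the class I lists lie left of 0 in the strain panels.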

How the data were processed

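Glomerular RNA of 12 mice was hybridised to 12 Affymetrix arrays, 3 in each of 4 groups, and the labels give no array or scan dates, so no batch was tested. The authors deposited probe set signals on a log2 scale. The tools MAS5 and GCRMA are named in the submitters' processing notes, with neither version nor role. No centring of genes and no further scaling was applied. Of 45037 probe sets, 34945 had 1 gene symbol in the platform annotation, 932 had several and 9160 had none. Each gene took its probe set with the highest mean over all arrays, and 11920 of 18193 genes, whose probe set exceeded the table's median of 3.03 on at least 3 arrays, were tested.

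In limma 3.58.1 (R 4.3.3) the 12 arrays were fitted together with a mean for each of the 4 groups, with 10.7 total degrees of freedom after moderation, and the Benjamini-Hochberg adjustment ran over all genes of a contrast, for 6 contrasts. The fit was tested on simulated data. Lists, levels and figures were made with Python 3.11.15, pandas 2.3.3, numpy 2.4.6 and matplotlib 3.10.9. Samples are 3 mice per group, so p-values measure the spread between mice, and the number of arrays limits the precision.

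The 7 genes and all lists were chosen with earlier results of these data known. All 7 genes are given in every array and contrast. Each antigen presentation list gives its members called in a contrast, up to 4 by lowest p, with markers of cell types given by counts, sums and examples, fixed genes such as H2-K1, Tap1, Nlrc5, Irf1, Ptprc and Cd40, and the 5 genes in no list most like the class II mean. Alternatives were scaling, the filter, the choice of probe set, the prior, array weights, the arrays in the fit, the replicate number as a block, a minimum difference and leaving out each array. Some listed genes are not reported here. Whether probes match both strains' sequences equally was not tested.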

Additional observations from a re-analysis of the deposited data

How the results depend on the processing

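Counts of the 6 genes called moved with few settings. With array weights 1 was called in nephritis in C57BL6J (B2m), 1 in 129S2SvPAs (B2m), 1 between control strains (Cd74), 3 between nephritic strains (Cd74, H2-Aa and H2-Eb1) and 2 on average (B2m and H2-DMa). Fitting only the groups compared called 1 in C57BL6J nephritis (B2m). The filter at the 75th percentile called 1 between control strains (Cd74) and 2 between nephritic strains (Cd74 and H2-Aa), no filter called 0 there, and the second brightest probe sets, of which Cd74 has none, called 0 there. Quantile normalization called 1 on average (B2m). Leaving out each array gave counts from 0 to 2 between control strains, from 0 to 2 between nephritic strains and from 0 to 1 on average. The causes were not tested.

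Some values below or above 0 changed sign. H2-Aa in C57BL6J nephritis was 0.0494 with array weights and ran from -0.39 to 0.17 without single arrays. H2-Ab1 in 129S2SvPAs nephritis ran from -0.43 to 0.13. In the difference of responses H2-Ab1 was -0.0433 in its second probe set, and without single arrays H2-Ab1 ran from -0.045 to 0.55, H2-Eb1 from -0.45 to 0.10, H2-DMa from -0.615 to 0.005 and Cd74 from -0.583 to 0.0267. Among other genes, second probe sets turned Rfxap in 129S2SvPAs nephritis to -0.35, Psmb8 between control strains to 0.06 and Ctsl on average to -0.35, and the mean of all Ctsl probe sets was -0.015 on average.

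The replicate block called 1 gene on average, H2-DMa at -0.69 (adjusted p = 0.046 in limma). The numbers were not taken as pairs, since the labels do not say that they mark pairs. Deviations from group means correlated above 0.1 in 11 of 18 pairs of arrays with the same number in different groups (r from -0.38 to 0.33, median 0.15). With different numbers and groups 9 of 36 pairs did so (r from -0.39 to 0.36, median -0.06). Whether arrays of the same number share an effect was not tested. Elsewhere the block moved no count of the 6 genes by over 1.5 times, and of the other listed genes it ended the calls of Marchf8 and Psmb8 in 129S2SvPAs nephritis and of Psmb10 between nephritic strains.

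Of the alternatives for single values of the 6 genes, 753 kept direction and side of the threshold, 22 crossed to a call, 4 lost the call of Cd74 and 13 changed sign. For the other listed genes that were called, 1301 kept direction and call, 170 lost the call and 4 changed sign. Depth is unknown in array data, and signals near the floor limit Ciita, H2-DMa and most markers of single leukocyte types.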
